A study of Mus musculus with 12 samples.

Results

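Transcripts of the NF-kB transcription factors and of their inhibitors were measured by RNA-seq in cDC2, the conventional dendritic cells of type 2, taken from mouse spleen. These cells take up antigen and present it to helper T cells. The gene set was a list of 10 genes, found by gene name among the 55322 genes of the table: the 5 subunit genes Nfkb1, Nfkb2, Rel, Rela and Relb, and the 5 inhibitor genes Nfkbia, Nfkbib, Nfkbie, Nfkbiz and Tnfaip3. All 10 were present and all 10 passed the filter on low values (at least 1 FPKM, fragments scaled to gene length and to the depth of the library, in at least 3 libraries). This list and all other gene lists below were chosen with earlier results of these data known. Their numbers of called genes, set beside the shares of all genes, are therefore descriptions.

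There were 12 libraries, 3 in each of 4 groups, and every mouse had received LPS, a bacterial cell-wall component, at 5 mg/kg into the peritoneum 4 days before the spleens were taken. CLP-cDC2 were the progeny of common lymphoid progenitors (CLP), and CDP-cDC2 the progeny of common dendritic cell progenitors (CDP), from wild-type CD45.2+ donors, each placed directly in the bone marrow of B6.SJL (CD45.1+) hosts. L-cDC2 (tdTomato+) and M-cDC2 (tdTomato-) were sorted from Il7r-Cre;Rosa26-lsl-tdTomato mice, in which a Cre driven from Il7r leaves a lasting red mark in cells that have passed through an Il7r-expressing stage. The labels name C57BL/6J mice, used at 7 to 8 weeks of age. The series asked how alike CLP-cDC2 and L-cDC2 are. The labels do not give the number of animals behind a library, the sort markers, or whether tdTomato+ and tdTomato- cells shared a donor mouse, so the p-values below measure the spread between these libraries, which may be in part technical. Transfer and reporter systems also differ in host, genotype and handling, which cannot be told apart from the system.

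NF-kB is a family of dimers. In resting cells, IkB proteins hold the dimers in the cytoplasm, and receptors for microbial products or cytokines release them by having IkB phosphorylated and destroyed (the canonical arm, with Rela, Rel and the product of Nfkb1). Receptors such as Cd40 act through the kinase Map3k14 to process the Nfkb2 precursor, which frees dimers with Relb (the non-canonical arm). Several inhibitor genes are themselves NF-kB targets, which makes them a negative feedback, and Relb is known for its part in dendritic cell development and maturation.

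The libraries held 26500000 to 73700000 assigned reads, and each of the 10 genes had between 881 and 76319 reads per library, as recovered from the steps of the FPKM values. All 11 markers of cDC2 and dendritic cells in general were above 0 in every library, Flt3 at 86.2 to 121 FPKM, while Mgl2 was as low as 0.049 FPKM. For 7 T cell markers the summed FPKM was 7.03 to 16.3 in CLP-cDC2, 1.39 to 4.55 in CDP-cDC2, 33.2 to 47.4 in L-cDC2 and 1.11 to 3.38 in M-cDC2. Of the 4 tested, 4 were higher in L-cDC2 than in M-cDC2 and 2 higher in CLP-cDC2 than in CDP-cDC2. Of all 14538 genes tested, 188 and 1021 were higher in these comparisons. Cd3e was at most 0.15 FPKM and at 0 in 5 libraries. For 5 neutrophil markers the sum was 3.24 to 4.53 in CLP-cDC2, 4.21 to 9.71 in CDP-cDC2, 0.76 to 28.99 in L-cDC2 and 2.16 to 10.8 in M-cDC2, with Ly6g at 0 in 8 libraries and S100a9 reaching 16.9 FPKM in L-cDC2 replicate 2. The summed FPKM of 7 NK cell markers was 190 to 284 in L-cDC2 and at most 12.5 elsewhere, and that of 9 B cell markers was 952 to 1523 in L-cDC2 and at most 504 elsewhere. This 504 was in CLP-cDC2 replicate 2, where Igkc was at 429 FPKM. The C1qb level was 49.8 FPKM in that library and at most 0.11 FPKM in CLP-cDC2 replicates 1 and 3. For 4 erythroid markers the sum was 15.6 to 391 in CLP-cDC2, 1.16 to 107 in CDP-cDC2, 4.97 to 404 in L-cDC2 and 20.1 to 32.9 in M-cDC2. CDP-cDC2 replicate 3 stood apart from its group, with a median absolute log2 difference of 0.33 per gene from the other libraries of the group, against 0.15 to 0.25 for the other 11 libraries, among which M-cDC2 replicate 3 was highest at 0.25. In bulk RNA, fewer cells of a type and less RNA per cell cannot be told apart.

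Promoters were available from RefSeq (build GRCm38.p6, 250 bases before to 50 after a start site) for 7 of the 10 genes. Relb, Nfkb1 and Nfkbiz had no entry. The NF-kB consensus, searched on both strands, was found in 7 of the 10 entries, belonging to 5 genes (Nfkb2, Rel, Nfkbia, Nfkbie and Tnfaip3) and in none of Rela or Nfkbib. Of 32851 promoters of the same length, 8.46% hold it. The wider pattern GGGNNNNNCC, which contains the consensus, was in 50.8% of them. A match is a run of letters and says nothing of binding. Printed here are the entry of Nfkbie and the first of 3 entries of Nfkb2, genes called lower in CLP-cDC2, and that of Nfkbia, a gene with no such call over all libraries, with the consensus matches in capitals.

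Nfkbie, chr17:45555450-45555749, plus strand: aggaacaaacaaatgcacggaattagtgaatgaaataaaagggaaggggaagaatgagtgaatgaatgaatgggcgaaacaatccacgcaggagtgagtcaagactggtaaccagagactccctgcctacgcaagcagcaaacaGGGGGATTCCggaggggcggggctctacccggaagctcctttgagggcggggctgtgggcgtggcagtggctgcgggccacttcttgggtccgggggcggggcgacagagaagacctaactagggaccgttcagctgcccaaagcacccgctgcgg
Nfkb2, chr19:46304487-46304786, plus strand: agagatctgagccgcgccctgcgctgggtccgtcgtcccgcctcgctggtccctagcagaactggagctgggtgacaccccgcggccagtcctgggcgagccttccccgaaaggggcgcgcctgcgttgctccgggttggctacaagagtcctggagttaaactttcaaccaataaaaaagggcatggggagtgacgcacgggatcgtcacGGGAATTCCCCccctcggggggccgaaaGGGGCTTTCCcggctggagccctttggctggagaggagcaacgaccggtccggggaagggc
Nfkbia, chr12:55492598-55492897, minus strand: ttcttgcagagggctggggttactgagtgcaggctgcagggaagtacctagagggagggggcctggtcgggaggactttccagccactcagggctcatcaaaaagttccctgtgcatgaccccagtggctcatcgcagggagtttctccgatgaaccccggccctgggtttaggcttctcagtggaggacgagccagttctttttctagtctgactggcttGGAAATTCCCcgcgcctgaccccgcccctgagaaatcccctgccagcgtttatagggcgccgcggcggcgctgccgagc

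The Nfkbie promoter has 1 match, from base -106 to base -97 counted from the start site. The Nfkb2 entry has 3 matches, of which those from -39 to -30 and from -38 to -29 overlap, and the third runs from -11 to -2. The Nfkbia promoter has 1 match, from -29 to -20. Matches were thus present both in genes called lower in CLP-cDC2 and in a gene with no call.

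Relb, Nfkb2 and Nfkbie were lower in CLP-cDC2 than in CDP-cDC2, and none of the 10 genes was higher. Relb had the largest difference, about 0.48-fold. None of the 10 genes passed the test between L-cDC2 and M-cDC2. CLP-cDC2 also lay below L-cDC2 for the same 3 genes, in a comparison that uses the same CLP-cDC2 libraries. In the comparison of CLP-cDC2 with CDP-cDC2, 3 of 10 genes passed an adjusted p of 0.05 with limma, against 13.1% of all 14538 genes tested in that contrast. All 10 are protein-coding. Among protein-coding genes alone the share called was larger, with 1082 higher and 936 lower of 10113 tested, and Rela and Nfkbiz passed too. With replicate 3 of CDP-cDC2 and of M-cDC2 both left out, 4 of the 10 genes passed, Nfkbia being added to Relb, Nfkb2 and Nfkbie. The number was 2 without CLP-cDC2 replicate 2, where Nfkb2 was lost, and 6 without CDP-cDC2 replicate 1, where Rel, Rela and Nfkbiz were added. Of all genes in these fits, in the same order, 754 were higher and 808 lower of 14289, 477 and 501 of 14444, and 1062 and 907 of 14362.

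**Figure D1:**
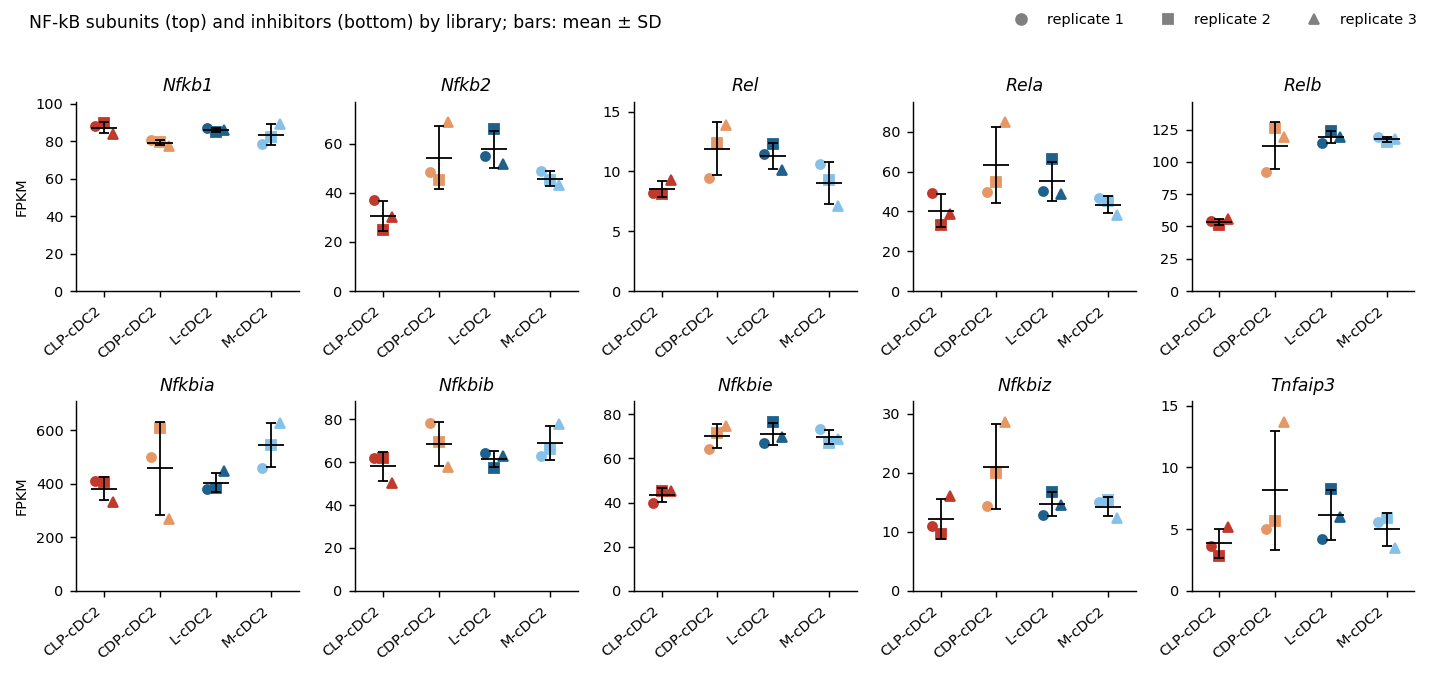
FPKM (vertical axes, from 0) of the 5 subunit genes (top) and the 5 inhibitor genes (bottom) in CLP-cDC2, CDP-cDC2, L-cDC2 and M-cDC2; each marker is a library, its shape the replicate number, and the black bars are the mean ± SD of 3 libraries. The CLP-cDC2 libraries lie below all others for Relb (50.7 to 55.8 FPKM), Nfkb2 and Nfkbie, while Nfkb1 is between 77.6 and 89.7 FPKM in every library.

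Relb encodes the subunit of the non-canonical arm (chromosome 7, 19340142 to 19363363, minus strand, as deposited; the sources used here do not tie these coordinates to a build, and 0 of the 10 genes have the same span in an annotation of GRCm38, so they are not to be set beside the GRCm38.p6 promoter positions). Its level was 53.9, 50.7 and 55.8 FPKM in CLP-cDC2 and 91.8, 126 and 119 FPKM in CDP-cDC2. It was 115, 124 and 119 FPKM in L-cDC2 and 119, 115 and 118 FPKM in M-cDC2. The 3 CLP-cDC2 libraries were the lowest of all 12, and the other 3 groups overlapped. With 3 libraries a group, separation was common among all 14538 genes tested. Libraries did not overlap for 29.7% of them between CLP-cDC2 and CDP-cDC2 and for 35.8% between CLP-cDC2 and L-cDC2. The share was 19.4% between L-cDC2 and M-cDC2 and 24.4% between CDP-cDC2 and M-cDC2. On the log2(FPKM + 1) scale the difference between CLP-cDC2 and CDP-cDC2 was -1.05 ± 0.12 (SE; adjusted p = 2.8e-04, limma), and that between L-cDC2 and M-cDC2 was 0.02 ± 0.12 (adjusted p = 0.97). The difference between those contrasts was -1.07 ± 0.17 (adjusted p = 0.0045). Against L-cDC2, CLP-cDC2 was lower by a log2 difference of -1.14 ± 0.12 (adjusted p = 7.2e-05). Relb kept all 3 calls under each alternative run, with a log2 difference between CLP-cDC2 and CDP-cDC2 of -1.19 to -0.96.

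Nfkb2 encodes the precursor that is processed to the partner of Relb (chromosome 19, 46292759 to 46300824, plus strand, as deposited). Its level was 37.0, 24.7 and 30.2 FPKM in CLP-cDC2 and 48.6, 45.3 and 69.0 FPKM in CDP-cDC2. In L-cDC2 it was 55.1, 66.1 and 52.0 FPKM and in M-cDC2 49.0, 45.3 and 43.1 FPKM. Every CLP-cDC2 library was under every library of the other groups. The 3 L-cDC2 libraries were above the 3 M-cDC2 libraries, as they were for 12.7% of all genes tested. The log2 difference was -0.80 ± 0.18 for CLP-cDC2 against CDP-cDC2 (adjusted p = 0.012, limma) and 0.32 ± 0.18 for L-cDC2 against M-cDC2 (adjusted p = 0.68). The first of these did not pass without CLP-cDC2 replicate 2 (adjusted p = 0.055). Against L-cDC2, CLP-cDC2 was lower by -0.90 ± 0.18 (adjusted p = 0.0072), a call kept whichever library was left out. An antisense lncRNA, 4833438C02Rik, at up to 19.9 FPKM, covers 11.6% of the exon bases of Nfkb2, and Psd, at up to 2.87 FPKM, covers 6.52%. Since the sources used here do not say whether counting used strand, reads of Nfkb2 and of those genes may be mixed and its level is uncertain to that extent.

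Rela and Rel encode the activating subunits of the canonical arm. Rela was at 49.2, 33.1 and 38.9 FPKM in CLP-cDC2 and 49.9, 54.8 and 84.98 FPKM in CDP-cDC2, with 50.4, 66.5 and 48.8 FPKM in L-cDC2 and 46.7, 45.1 and 38.4 FPKM in M-cDC2. CLP-cDC2 libraries were below CDP-cDC2 libraries with a narrow gap (49.2 against 49.9 FPKM at the nearest), and CDP-cDC2 replicate 3 was the highest of all. The log2 difference between CLP-cDC2 and CDP-cDC2, -0.61 ± 0.20, did not pass (adjusted p = 0.066, limma), and it passed without CDP-cDC2 replicate 1 (-0.76, adjusted p = 0.038). Rel was the lowest subunit, at 8.2, 8.1 and 9.3 FPKM in CLP-cDC2, 9.5, 12.4 and 13.9 FPKM in CDP-cDC2, 11.5, 12.3 and 10.1 FPKM in L-cDC2, and 10.6, 9.3 and 7.1 FPKM in M-cDC2. Its CLP-cDC2 libraries were under those of CDP-cDC2 and L-cDC2 but overlapped M-cDC2. The log2 difference against CDP-cDC2 was -0.43 ± 0.17 (adjusted p = 0.11, limma), and -0.57 without CDP-cDC2 replicate 1 (adjusted p = 0.046).

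Nfkb1, the partner of Rela and Rel, varied little. It was at 88.2, 89.7 and 83.8 FPKM in CLP-cDC2, 80.6, 79.6 and 77.6 FPKM in CDP-cDC2, 86.9, 84.96 and 85.8 FPKM in L-cDC2 and 78.6, 82.4 and 89.4 FPKM in M-cDC2. CLP-cDC2 libraries were above CDP-cDC2 libraries and overlapped both groups of the reporter line. The log2 difference against CDP-cDC2 was 0.14 ± 0.09 (adjusted p = 0.36, limma), with a 95% interval of -0.06 to 0.33, so the decrease seen for Relb lies outside it. Coefficients of variation within a group were 1.16 to 6.56% for Nfkb1.

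The make-up of the subunit transcripts followed from these levels. Relb was 22.8, 24.6 and 25.6% of the summed subunit FPKM in CLP-cDC2 and 32.7, 39.7 and 32.7% in CDP-cDC2. It was 35.03 to 37.7% in L-cDC2 and 38.8 to 39.8% in M-cDC2. Nfkb1 took its largest share in CLP-cDC2, with 37.3 to 43.5% in CLP-cDC2, 21.3 to 28.7% in CDP-cDC2, 24.0 to 27.3% in L-cDC2 and 25.9 to 30.2% in M-cDC2. The ratio of Relb to Nfkb1 was 0.614 ± 0.050 in CLP-cDC2, 1.42 ± 0.25 in CDP-cDC2, 1.39 ± 0.07 in L-cDC2 and 1.41 ± 0.10 in M-cDC2 (SD, n = 3 each). FPKM is per length, so these ratios compare transcripts per length and say nothing of protein. Nfkb1 was the most abundant subunit transcript in CLP-cDC2, while Relb was in the other 3 groups, and in no group did the libraries of the leading subunit overlap those of the next one. The summed subunit FPKM was 220.3 ± 15.2 in CLP-cDC2, 321 ± 42.3 in CDP-cDC2, 329 ± 21.2 in L-cDC2 and 299 ± 4.11 in M-cDC2 (SD, n = 3 each).

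**Figure D2:**
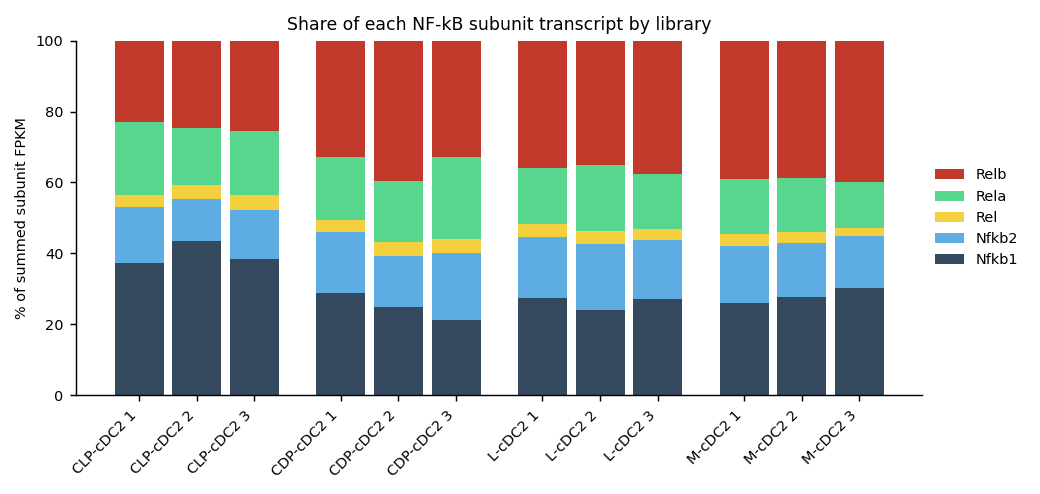
Share of each subunit transcript in the summed FPKM of the 5 subunits (vertical axis, percent) in each of the 12 libraries, grouped as CLP-cDC2, CDP-cDC2, L-cDC2 and M-cDC2. Relb takes 22.8 to 25.6% in the CLP-cDC2 libraries and 32.7 to 39.8% in the other 9 libraries.

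Nfkbie, which encodes the inhibitor IkB-epsilon (chromosome 17, 45866629 to 45874095, plus strand, as deposited), was at 39.9, 45.5 and 45.3 FPKM in CLP-cDC2 and 64.2, 71.7 and 74.7 FPKM in CDP-cDC2. It was 66.9, 76.7 and 69.9 FPKM in L-cDC2 and 73.3, 66.9 and 68.6 FPKM in M-cDC2. As for Relb, the CLP-cDC2 libraries were the lowest 3 of the 12 and the other groups overlapped. The log2 difference was -0.68 ± 0.11 for CLP-cDC2 against CDP-cDC2 (adjusted p = 0.0020, limma), 0.03 ± 0.11 for L-cDC2 against M-cDC2 (adjusted p = 0.95), and -0.70 ± 0.11 for CLP-cDC2 against L-cDC2 (adjusted p = 0.0014). The calls against CDP-cDC2 and against L-cDC2 were kept under each alternative run. The level relative to Relb was higher in CLP-cDC2, at 0.816 ± 0.078, than the 0.630 ± 0.066 of CDP-cDC2, 0.596 ± 0.020 of L-cDC2 and 0.593 ± 0.021 of M-cDC2 (SD, n = 3 each).

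Nfkbia, which encodes IkB-alpha, the rapidly re-made inhibitor of the canonical arm, was the most abundant transcript of the set in every group. It was at 409, 405 and 332 FPKM in CLP-cDC2 and 499.8, 608 and 268 FPKM in CDP-cDC2. It was 381, 386 and 446 FPKM in L-cDC2 and 461, 545 and 627 FPKM in M-cDC2. CDP-cDC2 replicate 3 was the lowest of all 12 libraries, while L-cDC2 libraries were below M-cDC2 libraries. The log2 difference between CLP-cDC2 and CDP-cDC2 was -0.19 ± 0.24 (adjusted p = 0.64, limma), and without CDP-cDC2 replicate 3 it was -0.53 and passed (adjusted p = 0.048). Between L-cDC2 and M-cDC2 it was -0.42 ± 0.24 (adjusted p = 0.69).

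Nfkbib, the gene of IkB-beta, had 62.0, 61.8 and 50.2 FPKM in CLP-cDC2 and 78.5, 69.3 and 57.6 FPKM in CDP-cDC2. It had 64.2, 57.4 and 62.9 FPKM in L-cDC2 and 62.7, 66.1 and 77.8 FPKM in M-cDC2. The groups overlapped in every comparison, and the log2 difference of CLP-cDC2 against CDP-cDC2 was -0.23 ± 0.14 (adjusted p = 0.30, limma; 95% interval -0.53 to 0.07). Ccer2 and Sirt2 lie on the opposite strand over 14.5% and 1.94% of its exon bases, which makes its level uncertain in the same way as that of Nfkb2.

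Nfkbiz encodes a nuclear IkB protein that acts on transcription, and Tnfaip3 encodes a ubiquitin-editing enzyme that ends signalling upstream of IkB. Nfkbiz was at 11.03, 9.6 and 16.02 FPKM in CLP-cDC2 and 14.4, 20.0 and 28.6 FPKM in CDP-cDC2, with 12.8, 16.8 and 14.5 FPKM in L-cDC2 and 15.0, 15.4 and 12.3 FPKM in M-cDC2. Tnfaip3 was at 3.6, 2.8 and 5.2 FPKM in CLP-cDC2 and 5.0, 5.7 and 13.7 FPKM in CDP-cDC2, with 4.2, 8.2 and 5.9 FPKM in L-cDC2 and 5.6, 5.9 and 3.4 FPKM in M-cDC2. CLP-cDC2 and CDP-cDC2 libraries overlapped for both genes, and CDP-cDC2 replicate 3 was the highest of all libraries for both. The log2 difference between CLP-cDC2 and CDP-cDC2 was -0.72 ± 0.23 for Nfkbiz (adjusted p = 0.059, limma) and -0.82 ± 0.33 for Tnfaip3 (adjusted p = 0.12). That of Nfkbiz passed without CLP-cDC2 replicate 3 (-0.91, adjusted p = 0.031) and without CDP-cDC2 replicate 1 (-0.95, adjusted p = 0.016).

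CDP-cDC2 replicate 3 differed from the other libraries of its group in opposite directions within the set. It was the highest of all 12 libraries for Nfkb2, Rel, Rela, Nfkbiz and Tnfaip3, at 1.27 to 2.56 times the mean of CDP-cDC2 replicates 1 and 2, and the lowest for Nfkb1 and Nfkbia, the last at 0.484 times that mean. For Relb and Nfkbie it was at 1.094 and 1.099 times the mean. The sum of the 5 inhibitors over that of the 5 subunits was 1.21 in this library, and 1.54 to 2.67 in the other 11.

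The order of the 10 levels was nearly shared by the groups. Nfkbia led in all 4, and Nfkbiz, Rel and Tnfaip3 were the lowest 3 in all 4. In CLP-cDC2, Nfkbia was followed by Nfkb1, Nfkbib, Relb, Nfkbie, Rela and Nfkb2. The libraries of Nfkbib and Relb overlapped there, as did those of Nfkbie and Rela and those of Rela and Nfkb2. In CDP-cDC2, L-cDC2 and M-cDC2, Nfkbia was followed by Relb, Nfkb1, Nfkbie and Nfkbib, and then by Rela and Nfkb2, with Rela ahead in CDP-cDC2 and Nfkb2 ahead in the other two. The libraries of Rela and Nfkb2 overlapped each other in all 3 of these groups, and those of Nfkbie and Nfkbib overlapped in CDP-cDC2 and M-cDC2. Those of Nfkbib also overlapped the next gene, Rela in CDP-cDC2 and Nfkb2 in L-cDC2, and those of Rel and Tnfaip3 overlapped in CDP-cDC2.

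Between L-cDC2 and M-cDC2, 0 of 10 genes passed with limma, against 1.73% of all genes. None had an unadjusted p under 0.05 and none passed with voom on the recovered reads. Subunit differences were 0.02 to 0.33 (log2) and inhibitor differences -0.42 to 0.24, with adjusted p from 0.68 to 0.97. The 95% interval for Relb was -0.24 to 0.28, and that for Nfkbie -0.20 to 0.26, so decreases of the size measured between CLP-cDC2 and CDP-cDC2 lie outside both. For Tnfaip3 the interval of -0.48 to 0.96 was wider.

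The difference between the lineage contrasts, CLP-cDC2 minus CDP-cDC2 less L-cDC2 minus M-cDC2, passed for 3 of 10 genes, against 5.99% of all genes. These were Relb, Nfkb2 (-1.12 ± 0.25, adjusted p = 0.024, limma) and Nfkbie (-0.70 ± 0.15, adjusted p = 0.021). Of the 10 genes, only Relb passed with replicate 3 of CDP-cDC2 and of M-cDC2 left out. Of all 14289 genes tested there, 177 were higher and 283 lower. Nfkb2 did not pass without CLP-cDC2 replicate 2, L-cDC2 replicate 1, L-cDC2 replicate 2, M-cDC2 replicate 2 or M-cDC2 replicate 3 (adjusted p = 0.050 to 0.078), nor Nfkbie without L-cDC2 replicate 2, L-cDC2 replicate 3 or M-cDC2 replicate 2 (0.056 to 0.072). Rela (-0.95 ± 0.29, adjusted p = 0.071) and Rel (-0.74 ± 0.24, adjusted p = 0.083) passed without CDP-cDC2 replicate 1 (0.040 and 0.037). Without that library the count was 5, where 545 genes were higher and 695 lower of 14362 tested. The count was 1 when replicate 2 of either L-cDC2 or M-cDC2 was left out. Of all genes, 59 were then higher and 131 lower of 14303 without the L-cDC2 library, and 107 and 241 of 14476 without the M-cDC2 library.

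**Figure D3:**
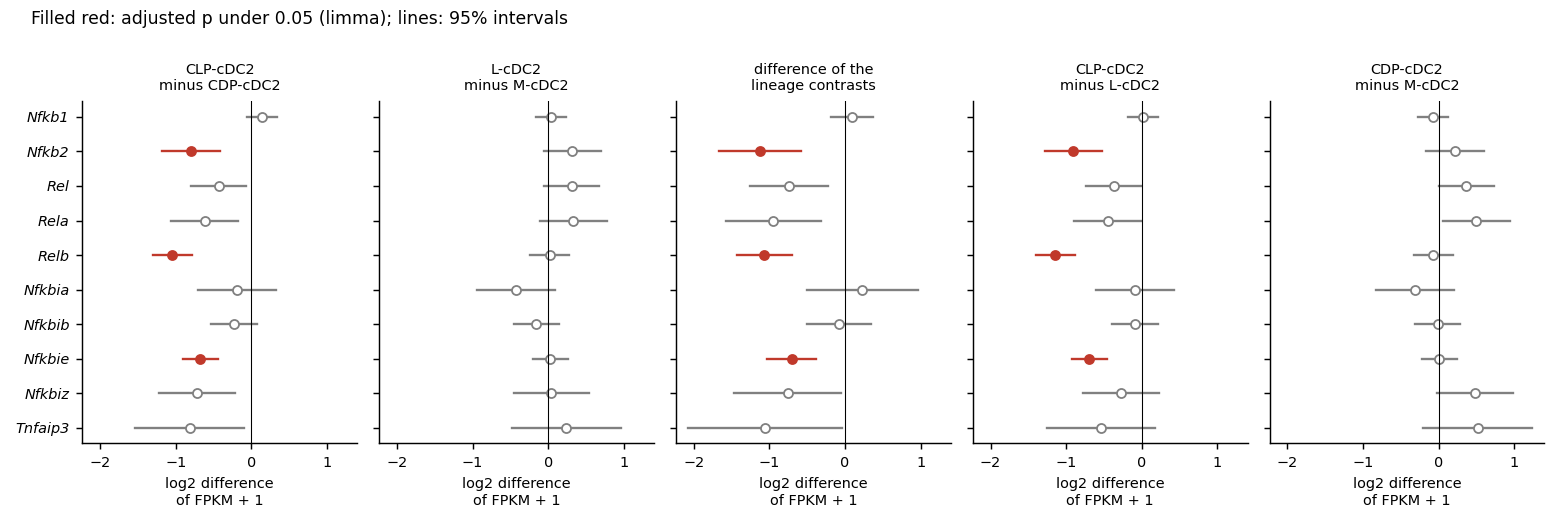
Log2 differences of FPKM + 1 (horizontal axes) for the 10 genes, with 95% intervals, in 5 comparisons: the 2 lineage contrasts, the difference between them, and the contrasts of CLP-cDC2 with L-cDC2 and of CDP-cDC2 with M-cDC2. Filled red points have an adjusted p under 0.05: Relb, Nfkb2 and Nfkbie in the 3 panels that use the CLP-cDC2 libraries, and no gene in the other panels.

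Across the systems, 3 of 10 genes were lower in CLP-cDC2 than in L-cDC2, against 10.6% of all genes called in either direction, and 0 of 10 differed between CDP-cDC2 and M-cDC2, against 2.58%. Between CDP-cDC2 and M-cDC2, Rela (0.50 ± 0.20, adjusted p = 0.20, limma) and Rel (0.37 ± 0.17, adjusted p = 0.24) were the only members with an unadjusted p under 0.05, and voom passed none. Relb differed by -0.07 ± 0.12 and Nfkbie by 0.01 ± 0.11 between CDP-cDC2 and M-cDC2. The CLP-cDC2 libraries enter the comparison with CDP-cDC2, the comparison with L-cDC2 and the difference of the lineage contrasts, so these are not separate tests. The median log2 difference of the 10 genes was -0.65 against CDP-cDC2 and -0.41 against L-cDC2, where the medians over all genes tested were -0.01 and -0.0044.

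Markers of other states and cells moved in the same comparison. The summed FPKM of 6 migratory or mature dendritic cell markers was 23.4 to 28.4 in CLP-cDC2, 70.1 to 74.0 in CDP-cDC2, 53.4 to 63.4 in L-cDC2 and 52.6 to 67.4 in M-cDC2. Of these, 6 of 6 were lower in CLP-cDC2 than in CDP-cDC2, against 6.12% of all genes tested. Of 11 cDC2 and general dendritic cell markers, 8 were lower in CLP-cDC2 than in CDP-cDC2, against the same 6.12%. Among them was Zbtb46 (8.59 against 18.2 FPKM), while Flt3 averaged 102 against 101 FPKM. The log2 difference was negative for 10 of the 11. Means were 13.8 against 110 FPKM for Cd209a, 41.0 against 110 for Sirpa, 1.36 against 3.97 for Clec10a and 0.23 against 1.53 for Mgl2. Of 6 cDC1 markers, 3 were higher in CLP-cDC2 than in CDP-cDC2, against 1021 of all 14538 genes tested. The summed FPKM of 9 monocyte and macrophage markers was 71.6 to 188 in CLP-cDC2, 506 to 670 in CDP-cDC2, 181 to 188 in L-cDC2 and 353 to 381 in M-cDC2. Lyz2 was the largest part of this sum, with means of 66.6 FPKM in CLP-cDC2, 476 in CDP-cDC2, 106 in L-cDC2 and 274 in M-cDC2. Of the 8 tested, 5 were lower in CLP-cDC2 than in CDP-cDC2 and 0 higher. Ccr2 (4.51 against 3.86 FPKM) and Ly6c2 (1.46 against 0.87 FPKM) had higher means in CLP-cDC2. The part of these cells or states in the levels of Relb, Nfkb2 and Nfkbie was not tested.

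Some of the 10 genes had closely matching profiles over the 12 libraries, measured as the root mean square difference of standardised log2 values, where 0 is identity. These are descriptions over libraries that share depth and group. Relb and Nfkbie were the closest pair within the set (0.23), and Nfkbiz and Tnfaip3 came next (0.38). Among 6017 other genes of at least 5 FPKM on average, Adgre1, the F4/80 macrophage antigen gene, was nearest to both Relb (0.25) and Nfkbie (0.21), with mean levels of 16.05 FPKM in CLP-cDC2, 49.98 in CDP-cDC2, 52.6 in L-cDC2 and 48.8 in M-cDC2. The next were Pstpip2 for Relb (0.26) and Rgl1 for Nfkbie (0.24). For Nfkb2 they were Plekho2 (0.23) and Myo1g (0.25), for Rela Fut4 (0.16) and Susd6 (0.21), and for Rel Uvrag (0.31) and Prkch (0.34). Tnfaip3 had Sgpl1 (0.28) and Pik3cg (0.30), and Nfkbiz had Cdk9 and Aspscr1 (0.33 each). Nfkb1 had Adprh (0.33) and Mrpl44 (0.38). The nearest gene was less close for Nfkbia (Ucp2, 0.36, then Zfp296, 0.43) and Nfkbib (Ucp2, 0.41, then Selplg, 0.44).

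**Figure D4:**
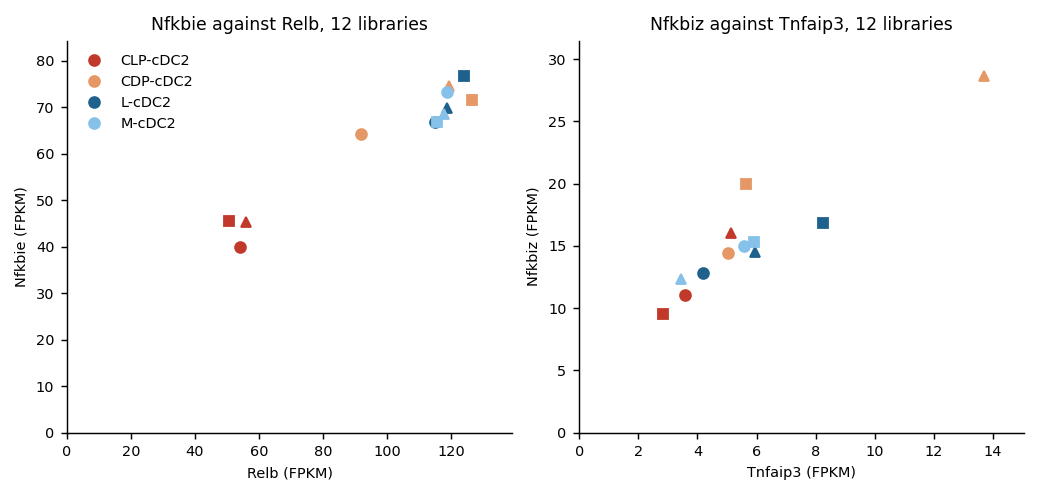
FPKM of Nfkbie against Relb (left) and of Nfkbiz against Tnfaip3 (right) in 12 libraries; colours are the groups and marker shapes the replicate numbers as in the plot of levels by library. On the left the 3 CLP-cDC2 libraries sit apart at low values of both genes (50.7 to 55.8 FPKM for Relb), and on the right CDP-cDC2 replicate 3 sits apart at high values (13.7 FPKM for Tnfaip3).

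The other genes of the pathway were taken from a list of 46, of which 43 were tested. Between CLP-cDC2 and CDP-cDC2, 14 were lower in CLP-cDC2 and 1 was higher, with a median log2 difference of -0.45 over the 43. Of all 14538 genes tested, 6.12% were lower and 13.1% were called in either direction, with 1021 higher and 889 lower (743 and 978 with median-ratio scaling). With replicate 3 of CDP-cDC2 and of M-cDC2 left out, 7 were lower and 0 higher, where 5.65% of all genes were lower. The number lower was 5 without CLP-cDC2 replicate 2, 6 without CDP-cDC2 replicate 3, 7 without M-cDC2 replicate 2, and 8 without CLP-cDC2 replicate 1, CLP-cDC2 replicate 3, L-cDC2 replicate 1 or L-cDC2 replicate 3. The share of all genes called lower without these single libraries was 3.47 to 5.33%. Between L-cDC2 and M-cDC2, 0 passed with limma in either direction, against 1.73% of all genes. An unadjusted p under 0.05 was found for 3, and 0 passed with voom. Between CLP-cDC2 and L-cDC2, 5 of the 43 were lower and 1 higher. Of all 14538 genes tested, 919 were lower and 623 higher, 10.6% in either direction. Without CDP-cDC2 replicate 3 the number of pathway genes lower was 9, where 1340 of 14398 genes tested were lower. The pathway gene higher in CLP-cDC2 than in L-cDC2, Tab2, kept its call only without CDP-cDC2 replicate 1, CDP-cDC2 replicate 3 or M-cDC2 replicate 3, among the libraries left out in turn. The 3 of the 43 that were higher in CDP-cDC2 than in M-cDC2 were Otulin, Map3k14 and Tab2, where 2.58% of all genes were called in either direction. All 3 of these calls were lost without CLP-cDC2 replicate 1, L-cDC2 replicate 2, M-cDC2 replicate 2 or M-cDC2 replicate 3 (adjusted p up to 0.15). Over the 12 libraries left out in turn, the call was lost 11 times for Map3k14, 10 times for Tab2 and 6 times for Otulin. All 3 were also lost with replicate 3 of CDP-cDC2 and of M-cDC2 left out.

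Of the genes lower in CLP-cDC2, those closest to the 10 by role were Bcl3, a nuclear IkB protein, and the adaptor Traf1, a target of NF-kB that binds several receptors of the tumour necrosis factor family. Bcl3 had 26.5, 15.9 and 36.0 FPKM in CLP-cDC2 and 86.4, 85.2 and 60.2 FPKM in CDP-cDC2 (log2 difference -1.58 ± 0.23, adjusted p = 0.0013, limma), with 52.8 to 62.0 FPKM in L-cDC2 and 46.3 to 56.6 FPKM in M-cDC2. Traf1 had 24.3, 28.5 and 30.6 FPKM in CLP-cDC2 and 57.5, 63.0 and 53.4 FPKM in CDP-cDC2 (-1.04 ± 0.12, adjusted p = 2.8e-04), with 59.3 to 64.2 FPKM in L-cDC2 and 57.3 to 67.1 FPKM in M-cDC2. For both genes the CLP-cDC2 libraries were the lowest of the 12, and the call against CDP-cDC2 held whichever library was left out. Both also passed in the difference of the lineage contrasts (Bcl3 -1.72, adjusted p = 0.013; Traf1 -1.04, adjusted p = 0.0050), that of Bcl3 not with no filter on low values (0.072).

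Among 9 receptors that feed the canonical or the non-canonical arm, 4 were lower in CLP-cDC2 than in CDP-cDC2, against 6.12% of all genes. The number was 2 without CLP-cDC2 replicate 2, where 3.47% of all genes were lower. Cd40, which receives T cell help, had 16.3, 17.5 and 16.5 FPKM in CLP-cDC2 and 31.7, 32.3 and 26.9 FPKM in CDP-cDC2 (-0.81 ± 0.12, adjusted p = 0.0012, limma), with 31.0 to 35.6 FPKM in L-cDC2 and 31.1 to 37.3 FPKM in M-cDC2. Tnfrsf1b, a receptor for tumour necrosis factor, had 9.8, 9.7 and 8.1 FPKM in CLP-cDC2 and 18.3, 17.9 and 34.5 FPKM in CDP-cDC2 (-1.20 ± 0.25, adjusted p = 0.0077). These 2 calls held whichever library was left out. Tnfrsf11a (-1.20, adjusted p = 0.014) did not pass without CLP-cDC2 replicate 2 (0.059), and Tnfrsf1a (-0.53, adjusted p = 0.049) passed only without CLP-cDC2 replicate 1 or M-cDC2 replicate 3, among the libraries left out in turn (adjusted p up to 0.19). Tnfrsf13c, the receptor for the B cell survival factor BAFF, was the gene higher in CLP-cDC2, at 7.1 to 9.4 FPKM against 3.1 to 5.2 FPKM in CDP-cDC2 (0.83, adjusted p = 0.017), and lost this call when CLP-cDC2 replicate 2 or CDP-cDC2 replicate 3 was left out (adjusted p up to 0.072). The summed FPKM of the 9 B cell markers was 87.3 to 504 in CLP-cDC2 and 55.7 to 92.8 in CDP-cDC2. Its top value came from Igkc in CLP-cDC2 replicate 2, at 429 FPKM against 20.1 and 28.5 FPKM in CLP-cDC2 replicates 1 and 3. The part of B cells in the Tnfrsf13c level was not tested.

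The kinases and negative regulators changed less firmly. The kinase Map3k14, of the non-canonical arm, was lower in CLP-cDC2 than in CDP-cDC2 (7.4 ± 1.0 against 12.4 ± 3.4 FPKM, SD, n = 3 each; adjusted p = 0.045, limma) and was the only one of 8 tested kinases and their partners that passed. Among the libraries left out in turn, it passed only without CDP-cDC2 replicate 2 or M-cDC2 replicate 3 (adjusted p up to 0.16). Of 13 tested negative regulators, 6 were lower in CLP-cDC2, against 6.12% of all genes, and 2 with replicate 3 of CDP-cDC2 and of M-cDC2 left out. Their number was 1 without CLP-cDC2 replicate 2 or CDP-cDC2 replicate 3, 2 without CLP-cDC2 replicate 1, CLP-cDC2 replicate 3 or M-cDC2 replicate 2, 3 without L-cDC2 replicate 1 or L-cDC2 replicate 3, and 1 to 7 over all alternatives. The share of all genes lower was 5.65% with replicate 3 of both groups left out, and 3.47 to 5.33% without these single libraries. Tnip2, which encodes a partner of the Tnfaip3 protein, had 13.3, 14.1 and 9.7 FPKM in CLP-cDC2 and 21.9, 19.1 and 22.1 FPKM in CDP-cDC2 (-0.73 ± 0.14, adjusted p = 0.0056). Its call held whichever library was left out, but not in a fit of these groups alone (adjusted p = 0.053). Otulin, a deubiquitinase, was lower in CLP-cDC2 by -1.57, but its CDP-cDC2 libraries spread from 33.4 to 98.3 FPKM, and the call was lost without CDP-cDC2 replicate 2, CDP-cDC2 replicate 3 or any library of CLP-cDC2 (adjusted p up to 0.088). Rnf11 (-0.98) did not pass without CLP-cDC2 replicate 1, CLP-cDC2 replicate 2, CDP-cDC2 replicate 3 or M-cDC2 replicate 2 (adjusted p up to 0.14). The remaining calls mostly depended on single libraries. Among the libraries left out in turn, Tnip1 (-0.99) passed only without replicate 2 of CDP-cDC2 or of L-cDC2 (adjusted p up to 0.15), and Nlrc5 (-0.84) only without CDP-cDC2 replicate 2, L-cDC2 replicate 2, M-cDC2 replicate 1 or M-cDC2 replicate 3 (up to 0.17). Pdlim2 (-0.60) passed only without replicate 1 or 2 of CDP-cDC2 or replicate 1 or 3 of M-cDC2 (up to 0.12), and the adaptor Traf3 (-0.52) only without CDP-cDC2 replicate 1 or M-cDC2 replicate 3 (up to 0.15).

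Of 26 known target genes, 19 were tested and 9 were lower in CLP-cDC2 than in CDP-cDC2, against 6.12% of all genes. The number was also 9 with replicate 3 of CDP-cDC2 and of M-cDC2 left out, where 5.65% of all genes were lower. The cytokine gene Il1b had 63.5, 56.2 and 59.5 FPKM in CLP-cDC2 and 207, 265 and 194 FPKM in CDP-cDC2 (-1.87 ± 0.14, adjusted p = 1.4e-05, limma). In the main limma fit it was the only target that also passed between L-cDC2 (64.6, 57.4 and 72.3 FPKM) and M-cDC2 (110, 138 and 131 FPKM), with a log2 difference of -0.95 ± 0.14 (adjusted p = 0.0020). Il1b levels thus separated both lineage pairs without overlap, whereas those of Relb and Nfkbie overlapped between L-cDC2 and M-cDC2. Such separation of L-cDC2 from M-cDC2 was found for 8 of the 19 tested targets, against 19.4% of all genes tested. For CLP-cDC2 and CDP-cDC2 it was found for 12 of the 19, against 29.7%. Nfkb2, Rela and Nfkbia also did not overlap between L-cDC2 and M-cDC2, Nfkb2 and Rela being higher in L-cDC2 and Nfkbia lower. Between L-cDC2 and M-cDC2, 4 targets had an unadjusted p under 0.05 and 2 passed with voom. Over all alternatives, 1 to 3 targets were lower in L-cDC2 and 0 to 1 higher. The chemokine gene Ccl5 had 47.7, 111 and 64.3 FPKM in CLP-cDC2 and 205, 319 and 208 FPKM in CDP-cDC2 (-1.76 ± 0.25, adjusted p = 0.0011), and 440 to 484 FPKM in L-cDC2, the group with the highest NK cell marker sum, whose part in that level was not tested. In M-cDC2 it had 261, 272 and 334 FPKM, all below L-cDC2, a difference that did not pass. L-cDC2 libraries were above M-cDC2 libraries for 12.7% of all genes tested. Gadd45b (-1.19), Marcksl1 (-1.13) and Ccl22 (-1.78, a gene that is also among the mature dendritic cell markers and was at most 0.25 FPKM in CLP-cDC2) were also lower in CLP-cDC2 than in CDP-cDC2, and these 5 calls against CDP-cDC2 held whichever library was left out. Cxcl10 (-0.92, adjusted p = 0.029) was not called when CLP-cDC2 replicate 2, CLP-cDC2 replicate 3 or CDP-cDC2 replicate 1 was left out (adjusted p up to 0.10).

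**Figure D5:**
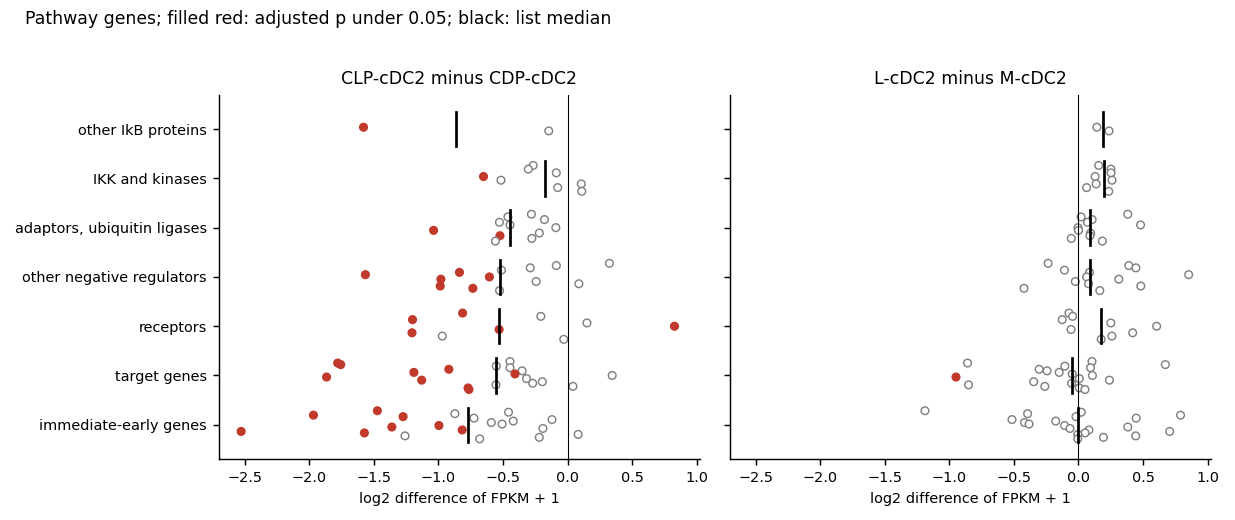
Log2 differences of FPKM + 1 (horizontal axes) for the tested genes of 7 lists around the NF-kB pathway, in CLP-cDC2 minus CDP-cDC2 (left) and L-cDC2 minus M-cDC2 (right); each point is a gene, filled red where the adjusted p is under 0.05, and black bars are list medians. On the left 14 pathway genes, 9 target genes and 8 immediate-early genes are lower in CLP-cDC2, and on the right 1 target gene, Il1b, is lower in L-cDC2.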

How the data were processed

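RNA was sequenced from 12 samples of splenic cDC2, 3 in each of 4 groups, with groups and replicate numbers from the labels. Per the labels' protocols, SMART-Seq HT cDNA was made into Nextera XT libraries. The authors deposited FPKM for 55322 genes, scaled to gene length and assigned fragments. Per the submitters' processing notes, which give no role or order, the tools were STAR 2.7.9a, featureCounts 2.0.1, Trim Galore 0.6.7, DESeq2 1.20.0, cutadapt 3.7 and Trimmomatic 0.39, with the builds GRCm38 and GRCh38. The deposited table had 0 value columns that matched no sample.

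Values were analysed as log2(FPKM + 1), which understates changes of low genes. Genes of at least 1 FPKM in at least 3 libraries were tested (14538 genes). limma 3.58.1 in R 4.3.3 (lmFit, contrasts.fit, eBayes with trend, two-sided) fitted 4 group means over all 12 libraries with 8 residual degrees of freedom, and p-values were adjusted by Benjamini-Hochberg over all tested genes and called under 0.05. The test was checked on simulated data. Read depth came from the spacing of low deposited FPKM values, taking the commonest low value as 1 read. Of the values above 0, 44.8 to 53.2% came out as whole reads (tolerance 0.001 reads), so no count test was the main result and voom on these reads served as an alternative. No 2 libraries of a group held identical values. Tables and figures used Python 3.11.15, pandas 2.3.3, numpy 2.4.6 and matplotlib 3.10.9.

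All 10 genes are named. Of the other lists, called genes are named, at most 6 per list and lineage contrast and at most 3 per list across systems, and some are given as counts. Genes of similar profile are the nearest 2 to each of the 10. The 10 genes and all lists were chosen with earlier results of these data known. Alternatives were other pseudocounts, filters, scalings and fits, and each library left out in turn. Counts over the other lists under these alternatives were chosen after seeing the data.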

Additional observations from a re-analysis of the deposited data

Results flagged for a closer look

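Log2 differences between lineages differed between the transfer and the reporter system for 3 of the 10 genes, by the limma test of the difference between the contrasts. Nfkb2 had a difference of -1.12, with -0.80 for CLP-cDC2 minus CDP-cDC2 and 0.32 for L-cDC2 minus M-cDC2. Relb had -1.07, with -1.05 for CLP-cDC2 minus CDP-cDC2 and 0.02 for L-cDC2 minus M-cDC2. Nfkbie had -0.70, with -0.68 for CLP-cDC2 minus CDP-cDC2 and 0.03 for L-cDC2 minus M-cDC2. The adjusted p over all alternatives was 0.0083 to 0.097 for Nfkb2, 3.4e-04 to 0.025 for Relb and 0.0029 to 0.072 for Nfkbie.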

How the results depend on the processing

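The fit of 1 contrast's groups alone cannot give the difference of the lineage contrasts. With 3 libraries a group, smaller differences may have been missed. The 10 genes gave 1166 values that kept their direction and side of the threshold over all alternatives, 42 that changed sign with no call, 18 newly called and 14 no longer called; no called value changed sign. The number of the 10 genes called in CLP-cDC2 minus CDP-cDC2, 3 as reported, was 5 at a filter of 5 FPKM and 5 among protein-coding genes, Rela and Nfkbiz being added in both, with 2 to 6 on leaving out each library. Of all genes, 1059 were higher and 668 lower of 8369 at that filter, and 1082 and 936 of 10113 protein-coding genes. In the difference of the lineage contrasts, 3 as reported, the number of the 10 genes was 5 with array weights, 1 with replicate 3 of CDP-cDC2 and of M-cDC2 left out, and 1 to 5 on leaving out each library. Nfkb2 was not called in CLP-cDC2 minus CDP-cDC2 with no filter (adjusted p = 0.054, limma) or in a fit of these groups alone (0.068). The numbers called between L-cDC2 and M-cDC2 (0), between CLP-cDC2 and L-cDC2 (3) and between CDP-cDC2 and M-cDC2 (0) stayed as they were when each library was left out. The cause of these shifts was not tested. Among all genes, calls ranged from 687 to 2337 in CLP-cDC2 minus CDP-cDC2 (1910 as reported), 96 to 838 in L-cDC2 minus M-cDC2 (252), 190 to 2044 in the difference (871), 503 to 2674 in CLP-cDC2 minus L-cDC2 (1542) and 47 to 2022 in CDP-cDC2 minus M-cDC2 (375). Of the other pathway genes, 5 to 17 were lower in CLP-cDC2 than in CDP-cDC2 (14 as reported), 1 to 9 in the difference (6) and 5 to 11 against L-cDC2 (5). Quantile normalization moved the median of all genes by -0.10 in L-cDC2 minus M-cDC2 and by 0.18 in the difference, and left the 3 calls. It changed the split of all calls into higher and lower to 174 and 96 in L-cDC2 minus M-cDC2 (188 and 64 as reported) and to 134 and 132 in CDP-cDC2 minus M-cDC2 (236 and 139).

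With the replicate block, 4 of the 10 genes were called in CLP-cDC2 minus CDP-cDC2, Nfkbiz being added (adjusted p = 0.028, limma), 3 in the difference, 3 in CLP-cDC2 minus L-cDC2, and 0 in both other contrasts. Of all 14538 genes tested, 817 were higher and 767 lower in CLP-cDC2 minus CDP-cDC2, 172 and 356 in the difference, and 430 and 709 in CLP-cDC2 minus L-cDC2. Deviations of same-numbered libraries correlated at 0.13, -0.22 and -0.08 between L-cDC2 and M-cDC2, and at -0.03, 0.28 and 0.09 between CLP-cDC2 and CDP-cDC2, and at -0.43 to 0.01 in the pairings across systems. Over these pairs the correlations were not all above 0.1 and the labels tie no number to a mouse or batch, so the numbers were not used to pair libraries. Whether same-numbered libraries share a mouse or a batch was not tested.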

Other observations

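Immediate-early genes, which many stimuli and tissue handling induce within minutes, were looked at beside the NF-kB genes. Of 20 tested, 8 were lower in CLP-cDC2 than in CDP-cDC2 and 0 passed between L-cDC2 and M-cDC2 with limma, against 6.12% of all genes lower in CLP-cDC2 than in CDP-cDC2 and 1.73% called between L-cDC2 and M-cDC2. Between L-cDC2 and M-cDC2, 1 had an unadjusted p under 0.05 and 0 passed with voom. The summed FPKM of the 23 listed genes was 2759, 2616 and 3458 in CLP-cDC2 and 3137, 5123 and 5387 in CDP-cDC2, 2607 to 3491 in L-cDC2 and 3003 to 3778 in M-cDC2. CDP-cDC2 replicate 3, highest for Tnfaip3 and Nfkbiz, was also highest in this sum. Jund, an AP-1 subunit gene, had 8.1, 5.2 and 9.6 FPKM in CLP-cDC2 and 21.1, 48.5 and 103 FPKM in CDP-cDC2 (log2 difference -2.53 ± 0.47, adjusted p = 0.0045, limma). Dusp2 (-1.97, adjusted p = 0.0087) and Ier5 (-1.36, adjusted p = 0.0086) were lower as well, and these 3 calls held whichever library was left out, those of Dusp2 and Ier5 not with no filter on low values (adjusted p = 0.064 and 0.058). Klf2 (-1.57), Atf3 (-1.47) and Egr1 (-1.27) were not called without CLP-cDC2 replicate 2 (adjusted p up to 0.064 for Klf2, and up to 0.16 for Atf3 and Egr1 over the libraries left out). Over the 12 libraries left out in turn, the call was lost 1 time for Klf2, 5 times for Atf3 and 9 times for Egr1. Those of Atf3 and Egr1 were also lost with replicate 3 of CDP-cDC2 and of M-cDC2 left out. All 3 were lost in a fit of CLP-cDC2 and CDP-cDC2 alone. The number lower was 4 without CLP-cDC2 replicate 2, 5 without CLP-cDC2 replicate 1, CDP-cDC2 replicate 2 or CDP-cDC2 replicate 3, and 13 without CDP-cDC2 replicate 1. With no filter on low values it was 2. Fosb, which was not called in CLP-cDC2 minus CDP-cDC2, was higher in CLP-cDC2 than in L-cDC2 (1.16, adjusted p = 0.0062) and higher in CDP-cDC2 than in M-cDC2 (1.40, adjusted p = 0.0071), the second call being lost with replicate 3 of CDP-cDC2 and of M-cDC2 left out (1.24, adjusted p = 0.068).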
